A study of Mus musculus with 12 samples.

Results

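The growth hormone and IGF axis of the liver was read here as 10 genes, taken by their symbols from the 16821 genes listed for each mouse. They are the receptor Ghr, the kinase Jak2, the transcription factor Stat5b, the secreted products Igf1 and Igfals, the binding proteins Igfbp1, Igfbp2 and Igfbp4, and the feedback inhibitors Socs2 and Cish. All 10 were present in all 12 mice. The mice were adult male C57BL/6J, and the labels name no allele, transgene or drug in any group. The Exe group had 6 mice, trained by treadmill running of moderate intensity over 6 weeks, and the Con group had 6 sedentary mice. Mice were perfused with saline through the heart, and liver tissue was cut out away from the large vessels and bile ducts at the base of the lobes. Each mouse gave 1 library, so the spread within a group holds both differences between mice and technical ones, which cannot be told apart. Per the study's methods, animal procedures took place in the nocturnal phase and livers were taken within a day of the last run. The hour for each single mouse is not given in the sources used here.

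Growth hormone reaches the liver in pulses from the pituitary. It binds its receptor, which activates the kinase JAK2, and JAK2 phosphorylates STAT5B, which enters the nucleus and turns on Igf1, Igfals, Socs2 and Cish. The liver is the main source of circulating IGF1, most of which travels bound to a binding protein and to the acid-labile subunit encoded by Igfals. SOCS2 and CIS, the product of Cish, switch the receptor off again, and insulin lowers Igfbp1 through the factor FOXO1. Because males and females release growth hormone in different patterns, many liver genes under its control are expressed at different levels in the sexes.

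Promoter sequence of 3 members is shown because it holds the letters bound by the factors just named. STAT5 binds the palindrome TTCNNNGAA, and FOXO1 binds CAAAACA. Windows of 300 bases around annotated start sites, 250 before and 50 after, were read from the RefSeq promoters of build GRCm38.p6, and 9 of the 10 members had at least 1 window. Socs2 had none. Both motifs were searched on both strands, and they do not overlap each other here. TTCNNNGAA lay in the windows of Cish and Igfals, and CAAAACA in that of Igfbp1. Of all 32851 windows, 8.3% held the first motif and 6.28% the second. The matches are given in capitals below, all on the + strand. In Cish, 2 copies lie 2 bases apart just after the start site. In Igfals, the copies belong to windows of different annotated starts. In Igfbp1, the match starts at position -108 relative to the start site. A match of letters is a description and not evidence that a factor was bound.
Cish, chr9:107296654-107296683: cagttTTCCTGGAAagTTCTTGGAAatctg
Igfals, chr17:24877598-24877626: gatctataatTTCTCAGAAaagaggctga
Igfals, chr17:24878163-24878191: ctgccaggtgTTCCTAGAAgaggccctgg
Igfbp1, chr11:7197637-7197786: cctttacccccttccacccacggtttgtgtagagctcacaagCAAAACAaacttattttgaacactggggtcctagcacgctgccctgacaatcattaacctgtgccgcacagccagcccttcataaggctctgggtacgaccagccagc

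Levels are given as FPKM, which divides the fragments of a gene by its transcript length and by the mapped fragments of that mouse, so genes can be compared with each other. Summed FPKM per mouse ranged from 735200 to 820107, and the depth in reads is unknown. Groups were compared with limma on log2(FPKM + 1), a scale on which changes of genes with low FPKM are understated. The 10241 genes with at least 1 FPKM in at least 6 mice were tested, with Benjamini-Hochberg adjustment over all of them. The livers expressed hepatocyte markers throughout, with a summed level of 8 markers of 51320 to 69430 FPKM in Con mice and 60400 to 75750 in Exe mice. In bulk liver, fewer cells of a type and less RNA per cell cannot be told apart.

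Between Con and Exe groups, none of the 10 members passed an adjusted p of 0.05, and 0% of all genes tested did. The study, with a count-based test of the same groups, did report genes past its own thresholds. The 0% therefore holds for limma on FPKM, and the reason for the difference was not tested. At an unadjusted p of 0.05, 0 of 10 members passed in limma and 0 of 10 in the exact permutation test, against 636 genes or 6.21% of all genes tested in limma. Of the members, 7 had a higher mean log2 value in Exe group and 3 a lower one, with a median difference of 0.07 against 0.02 over all genes tested. Over all genes tested, 57.5% were higher in Exe group, which is the background for each count of higher and lower genes given here. The members' median was 0.01 without Con 1, 0.02 with quantile normalization and 0.11 without Exe 5. The differences ran from -0.23 for Igfbp1 to 0.67 for Socs2. All 10 members passed the filter on low values.

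**Figure D1:**
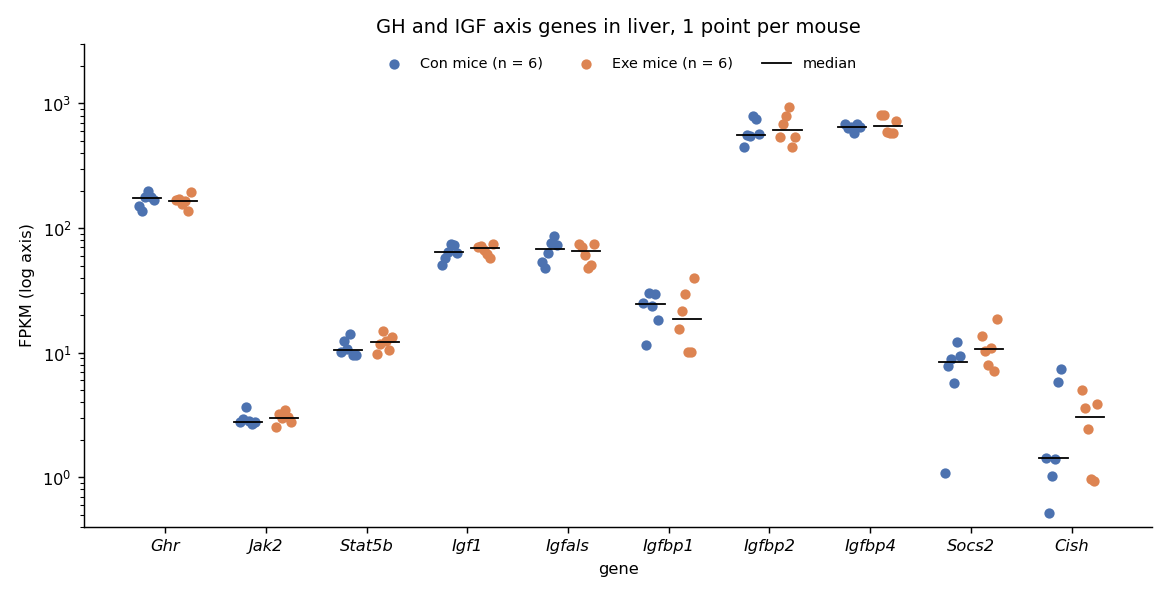
FPKM of the 10 members on a log axis, with 1 point per mouse and a line at the median of each group (n = 6 Con and 6 Exe mice). The points of the groups overlap for each gene, and Cish (0.52 to 7.43 FPKM), Socs2 (1.08 to 18.67) and Igfbp1 (10.07 to 39.9) spread most between mice.

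Ghr, the receptor through which the liver senses growth hormone, was highly expressed. Its FPKM ran from 137.27 through a median of 173.1 to 196.62 in Con mice, and from 137.09 through 166.2 to 194.49 in Exe mice. The groups covered nearly the same range, and the log2 difference was -0.02 ± 0.09 (SE, 95% interval -0.23 to 0.18, adjusted p = 0.984 in limma). Jak2, the kinase attached to the receptor, was far lower, at 2.93 ± 0.356 FPKM in Con and 3.01 ± 0.323 in Exe group (SD, n = 6 each). Its log2 difference of 0.03 had an interval of -0.13 to 0.19, the narrowest among the members. A single Con mouse, Con 3, stood above the other Con mice in Jak2, with 3.64 FPKM.

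Stat5b, the factor that carries the signal to the nucleus, lay at 9.53, 10.44 and 14.07 FPKM (lowest, median and highest) in Con mice. In Exe mice it lay at 9.82, 12.08 and 14.91. Only Exe 3 exceeded the highest Con mouse, and the log2 difference was 0.12 ± 0.11 (SE, adjusted p = 0.931 in limma). Stat5b exceeded its close paralog Stat5a in all 12 mice, by a ratio of FPKM between 2.72 and 5.21 with a median of 3.21. Reads in the stretches that these genes share may have been split between them.

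Igf1, the hormone made by the liver on this signal, was measured at 50.3, 64.01 and 74.17 FPKM (lowest, median and highest) in Con mice and at 57.02, 68.5 and 74.27 in Exe mice. Con 1 was lowest and Exe 6 highest, and the groups overlapped over most of their range. The log2 difference was 0.07 ± 0.10 (SE, 95% interval -0.13 to 0.28, adjusted p = 0.947 in limma), and it was 0.01 without Con 1 and 0.12 without Con 4. Igfals, whose product holds IGF1 in the circulation, lay at 47.89, 67.7 and 85.98 FPKM in Con mice. It lay at 47.97, 65.71 and 75.09 in Exe mice, all inside the Con range. Igf1 and Igfals had nearly equal levels, with Igfals higher in 6 of 12 mice and a ratio of Igfals to Igf1 between 0.776 and 1.18.

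Igfbp2 and Igfbp4, which bind IGFs in the circulation and in tissue, were the most abundant members. Igfbp4 had a mean of 645 ± 37.6 FPKM in Con and 680 ± 111 in Exe group (SD, n = 6 each). Exe 1 and Exe 2, at 804.6 and 808.61, and Exe 6, at 716.28, were above all Con mice. Exe 4 and Exe 5, at 579.98 and 580.01, were only just below the lowest Con mouse, Con 4 at 581.18. Igfbp2 had a mean of 608 ± 131 FPKM in Con and 655 ± 186 in Exe group, and only Exe 4, at 942.49, exceeded all Con mice. Their order was not stable. Igfbp4 exceeded Igfbp2 in 8 of 12 mice, with a ratio from 0.615 to 1.54.

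Among the summed FPKM of Igfbp1 to Igfbp7, Igfbp2 took 44.8% ± 5.99 in Con and 45.6% ± 8.63 in Exe group (SD, n = 6 each). Igfbp4 took 48.3% ± 5.42 and 48.3% ± 8.11. Igfbp7, which binds IGFs weakly, took 4.72% ± 0.777 and 4.05% ± 0.955. Igfbp3, the main carrier of circulating IGF1, took only 0.384% and 0.4%, at 3.86 to 7.28 FPKM over all mice. Hepatocytes are not its main source in liver.

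Igfbp1, which insulin represses and fasting raises, varied more between mice. It lay at 11.61, 24.42 and 30.16 FPKM (lowest, median and highest) in Con mice and at 10.07, 18.53 and 39.9 in Exe mice. Exe mice held both ends of the range, with Exe 4 and Exe 5 below all Con mice and Exe 6 above all of them. The log2 difference was -0.23 ± 0.32 (SE, 95% interval -0.93 to 0.47, adjusted p = 0.953 in limma). It was -0.44 without Exe 6 and -0.03 without Con 1 and Exe 5, the mice highest in acute-phase genes. Its SD within groups, 0.65 on the log2 scale, was greater than that of 98.9% of genes tested. Its share of the summed binding proteins ran from 0.63% in Exe 4 to 2.92% in Exe 6.

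Socs2, an inhibitor of the growth hormone receptor, had the greatest difference among members. It lay at 1.08, 8.38 and 12.17 FPKM (lowest, median and highest) in Con mice and at 7.11, 10.61 and 18.67 in Exe mice. Exe 1 and Exe 6 were above all Con mice, while Con 1 was below all other mice. The log2 difference was 0.67 ± 0.37 (SE, 95% interval -0.13 to 1.48, adjusted p = 0.851 in limma and unadjusted p = 0.13 in the exact two-sided permutation test). The interval includes a 2-fold change and no change. Without Con 1 the difference was 0.31, and without the 2 mice highest in acute-phase genes (Con 1 and Exe 5) it was 0.42.

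Cish, the gene of the inhibitor CIS, was low and the most variable member. It lay at 0.52, 1.42 and 7.43 FPKM (lowest, median and highest) in Con mice and at 0.93, 3.02 and 5 in Exe mice. Both ends of the range were Con mice, and all Exe mice lay inside it. The log2 difference was 0.13 ± 0.43 (SE, 95% interval -0.80 to 1.05, adjusted p = 0.98 in limma). On the FPKM scale the mean of Cish was lower in Exe group, at 2.80 against 2.93 in Con. The SD within groups of Cish and Socs2, 0.86 and 0.75 on the log2 scale, exceeded that of 99.5% and 99.3% of genes tested. The inhibitors did not keep a fixed proportion, with a ratio of Socs2 to Cish from 0.755 in Con 1 to 15.1 in Con 2.

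**Figure D2:**
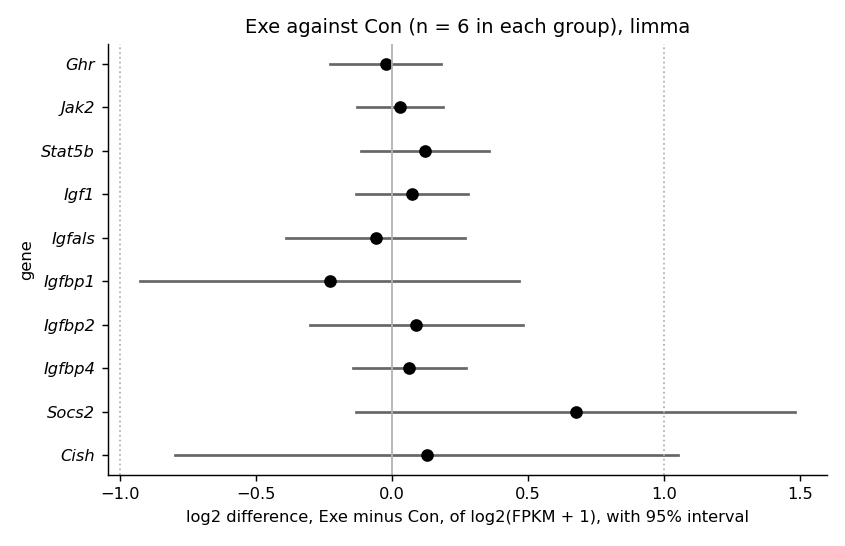
Difference in mean log2(FPKM + 1) between Exe and Con groups for each member, with its 95% interval from limma (n = 6 mice in each group), dotted lines marking a log2 difference of 1 either way. All 10 intervals include 0, and those of Socs2 (-0.13 to 1.48) and Cish (-0.80 to 1.05) also include 1.

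In the order of FPKM over all mice, Igfbp4 and Igfbp2 were followed by Ghr, then Igf1 and Igfals, then Igfbp1, Stat5b, Socs2, Jak2 and Cish. Igfbp2 exceeded Ghr in 12 of 12 mice, by 2.77 to 5.71 times, and Ghr exceeded Igf1 in 12 of 12, by 2.33 to 3.003 times. Igfals exceeded Igfbp1 in 12 of 12 mice. The neighbours Igfbp4 and Igfbp2 (8 of 12), Igf1 and Igfals (6 of 12) and Jak2 and Cish (7 of 12) changed places between mice. Igfbp1 exceeded Stat5b in 9 of 12 mice, Stat5b exceeded Socs2 in 9 of 12, and Socs2 exceeded Jak2 in 11 of 12.

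Relations across the 12 mice were computed for 16 pairs among pathway genes and the acute-phase mean. The pairs were chosen with earlier results of these data known. Permutation p-values were adjusted over the 16, which does not account for that choice. Igf1 was higher in mice with higher Ghr (Pearson's r = 0.801, adjusted permutation p = 0.0137, Spearman's rho = 0.846, adjusted permutation p = 0.00824). It was also higher in mice with higher Igfals (r = 0.823, adjusted permutation p = 0.0137, rho = 0.846, adjusted permutation p = 0.00824). Without the 2 mice farthest from the median of the first gene of the pair, r was 0.753 for Ghr and 0.855 for Igfals. Both relations were present within each group. For Ghr, r was 0.831 in Con mice (exact permutation p = 0.0389) and 0.879 in Exe mice (exact permutation p = 0.0167). For Igfals, r was 0.862 (exact permutation p = 0.0278) and 0.917 (exact permutation p = 0.0125). All values of a mouse come from 1 library and share its scaling.

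The feedback genes followed Igf1 less closely. Socs2 and Igf1 gave r = 0.723 (adjusted permutation p = 0.0263), but rho was 0.559 (adjusted permutation p = 0.136), and r was 0.247 without Con 1 and Exe 6, so the relation rests on those mice. Cish and Igf1 gave r = 0.556 (adjusted permutation p = 0.122). Without Con 5 and Con 6, r was 0.641 (permutation p = 0.0469). Within groups, r of Cish and Igf1 was 0.388 in Con mice (exact permutation p = 0.428) and 0.913 in Exe mice (exact permutation p = 0.0111). The difference between the groups was not tested. Socs2 and Cish, both switched on by STAT5, gave r = 0.431 (adjusted permutation p = 0.21), which did not pass.

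Igfbp1 was higher in mice with higher Irs2, the insulin receptor substrate that FOXO1 also controls (r = 0.733, adjusted permutation p = 0.0263, rho = 0.671, adjusted permutation p = 0.0825). Without Exe 4 and Exe 5, r was 0.825, and it was 0.904 in Con mice (exact permutation p = 0.0222) and 0.738 in Exe mice (exact permutation p = 0.124). Pck1, a gene of glucose production that FOXO1 also controls, gave r = 0.367 with Igfbp1 (adjusted permutation p = 0.293). Igfbp1 did not pass with Igfbp2 (r = 0.03, adjusted permutation p = 0.925) or Igf1 (r = 0.474, adjusted permutation p = 0.174).

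Some livers expressed the acute-phase genes, which the liver turns on in inflammation, far more than others. The mean log2(FPKM + 1) of Saa1, Saa2, Saa3, Lcn2, Orm1, Orm2, Hp and Itih4 ran from 6.97 in Con 4 to 10.95 in Con 1, and from 6.94 in Exe 4 to 10.86 in Exe 5. Igf1 was lower in mice with a higher mean (r = -0.77, adjusted permutation p = 0.0203, rho = -0.671, adjusted permutation p = 0.0825). Without Con 1 and Exe 5, r was -0.599 (permutation p = 0.0679). It was -0.908 in Con mice (exact permutation p = 0.00972) and -0.496 in Exe mice (exact permutation p = 0.335), and the difference between the groups was not tested. With the same mean, Ghr gave r = -0.642 (adjusted permutation p = 0.0703), Igfals -0.515 (0.14), Socs2 -0.5 (0.14), Cish -0.326 (0.338), Igfbp1 -0.129 (0.729) and Socs3 0.541 (0.122), and none of these passed. Of the 5 bile duct markers, Spp1, which macrophages also express, was at 63.99 to 71.28 FPKM in Con 1, Con 2, Con 3 and Exe 5 and at 22.8 to 38.94 in the other mice. Krt19, Krt7 and Epcam did not follow it, and were highest in Con 6 (18.07, 3.05 and 3.29 FPKM). Sox9 followed it in part, being highest in Exe 5 (2.11) and Con 3 (2.07) but lowest in Con 1 (0.9). The part of these cells in the relations was not tested.

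**Figure D3:**
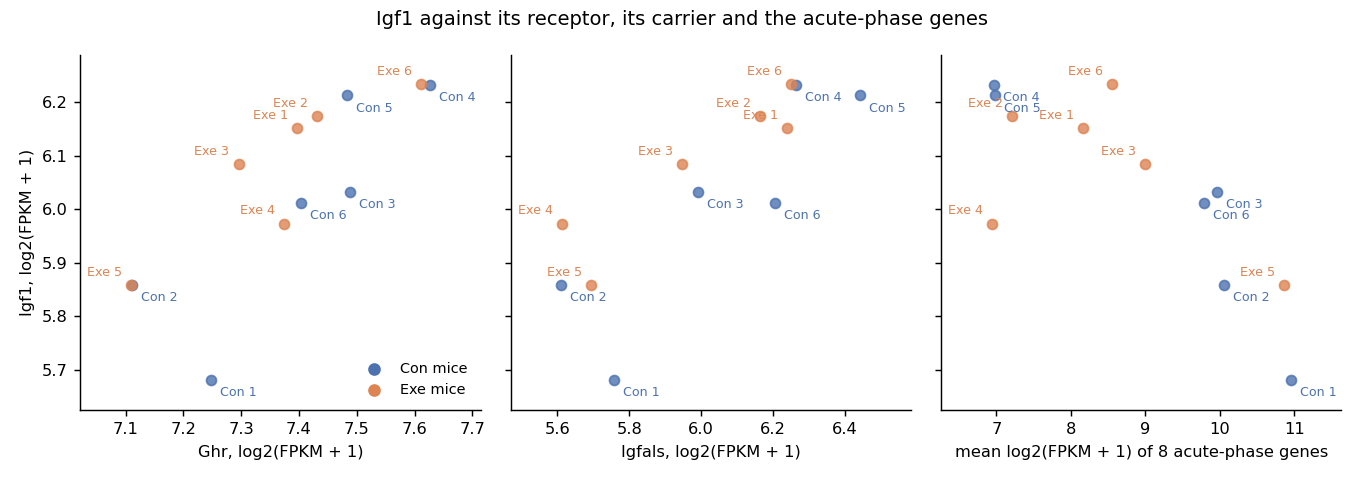
Igf1 against Ghr, Igfals and the mean of 8 acute-phase genes, all as log2(FPKM + 1), with 1 labelled point per mouse (6 Con and 6 Exe). Igf1 is higher where Ghr (r = 0.801) and Igfals (r = 0.823) are higher, and lower where the acute-phase mean is higher (r = -0.77), with Con 1 lowest in Igf1 and highest in the mean.

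For 4 members the 3 genes with the most alike pattern were found among all genes tested, by Pearson's r over 12 mice after subtracting the group means. With Igf1 these were Ireb2 (r = 0.97), Mme (0.951) and Rrn3 (0.942). With Igfbp1 they were Irf2bp2 (0.891), Abhd17a (0.863) and D230025D16Rik (0.839), and with Socs2 Slc17a2 (0.912), Zfp318 (0.887) and Rapgef4 (0.881). With Cish they were Onecut1 (0.909), Wdr45b (0.901) and Ss18l2 (0.888). These are the highest of many correlations and have no test.

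Onecut1, a liver transcription factor (HNF6), lay at 0.52, 1.14, 1.38, 1.82, 4.31 and 8.14 FPKM in Con 1 to Con 6. It lay at 6.28, 7.02, 4.27, 0.78, 1.09 and 6.96 in Exe 1 to Exe 6. No mouse lay between 1.82 and 4.27. Con 6 was highest in both Onecut1 and Cish (7.43 FPKM), and Con 2, lowest in Cish at 0.52, had an Onecut1 of 1.14. Bcl6, a repressor of STAT5 targets named after its values were seen, was lowest in Con 6, at 3.21, and highest in Con 4, at 30.42, where Cish was 1.41. Between groups, Onecut1 differed by 0.52 ± 0.48 and Bcl6 by -0.05 ± 0.53 on the log2 scale (SE, adjusted p = 0.931 and 0.994 in limma).

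**Figure D4:**
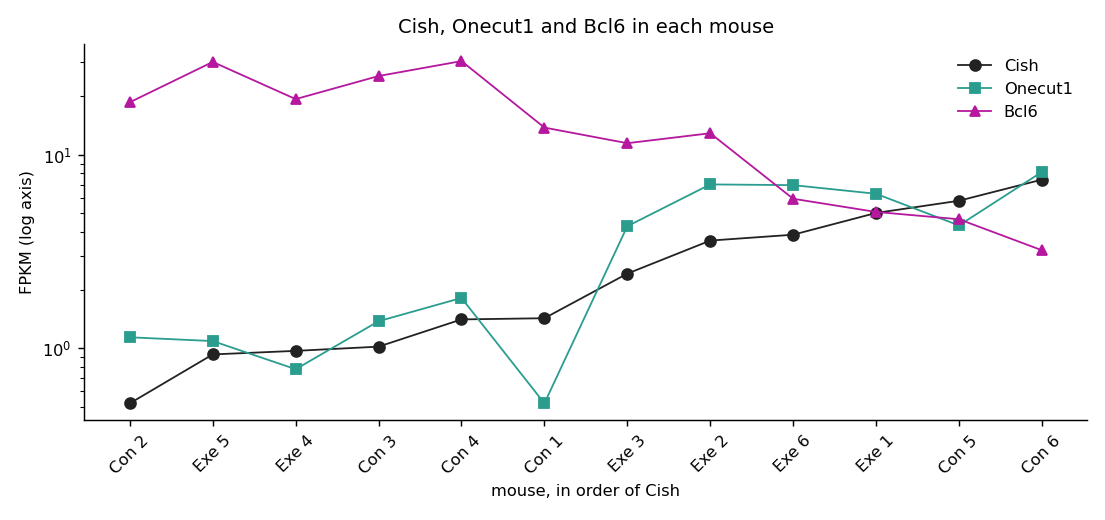
FPKM of Cish, Onecut1 and Bcl6 in each of the 12 mice on a log axis, with the mice in order of Cish and lines that only join the points of a gene. Onecut1 (0.52 to 8.14 FPKM) is high where Cish is high, and Bcl6 (3.21 to 30.42) is high where Cish is low, in mice of both groups. Onecut1 was picked as the gene most like Cish in these mice, and Bcl6 after its values were seen, so the pattern is not a test.

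The gene lists below share some genes, among them Prlr, Bcl6, Irs2 and Pck1, so their counts are not independent. In the rest of the growth hormone receptor pathway, 14 further genes were sought, of which 12 were present in the data and 11 were tested. Of these, 7 were higher and 4 lower in Exe group, 0 passed the unadjusted p, and the median log2 difference was 0.02, as over all genes. Stat3 (0.17 ± 0.09) and the adaptor Shc1 (-0.03 ± 0.05) were the most abundant (SE). Growth hormone itself is made in the pituitary, and Gh was not analysed here. Of 10 SOCS proteins and ligase subunits, 9 were tested, 4 higher and 5 lower (median -0.04), or 3 and 6 with quantile normalization and 1 and 8 without Con 1 and Exe 5. The most abundant, the subunits Elob, Eloc and Rnf7, differed by -0.05 ± 0.08, -0.04 ± 0.06 and -0.05 ± 0.07. Only Socs3, which is switched on by STAT3 and restrains IL-6 signaling, passed the unadjusted p, at 6.3 ± 3.59 FPKM in Con and 3.65 ± 0.821 in Exe group (SD, n = 6 each). Its log2 difference was -0.55 ± 0.23 (SE, adjusted p = 0.793 in limma), and Con 1, high in acute-phase genes, held the highest value of 13.27.

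Of 6 ligands, receptors and adaptors of the IGF and insulin system, 4 were tested, 2 higher and 2 lower (median -0.004), and 0 passed the unadjusted p. Insr, the insulin receptor, was at 10.8 ± 0.54 FPKM in Con and 11.1 ± 0.836 in Exe group. Igf2r, a clearance receptor for IGF2, was at 5.40 ± 0.231 and 5.19 ± 0.265. Irs2 was at 3.39 ± 1.58 and 3.09 ± 0.968 (SD, n = 6 each). Igf1r, the IGF1 receptor, was at 0.12 to 0.21 FPKM over all mice, and the fetal growth factor Igf2 at 0.09 to 0.31. Of 9 further binding proteins and proteases, only Igfbp3 (0.11 ± 0.13) and Igfbp7 (-0.16 ± 0.10) passed the filter on low values, and neither passed the unadjusted p.

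Of 7 hepatocyte transcription factors that act on these genes, 3 were higher and 4 lower (median -0.05), and 0 passed the unadjusted p. Cebpa differed by -0.09 ± 0.05, Hnf4a by -0.12 ± 0.11 and Cebpb by -0.27 ± 0.21 (SE). Of 6 insulin and FOXO1 targets, 5 were tested, 1 higher and 4 lower (median -0.19), and 0 passed the unadjusted p. The median ran from -0.40 without Exe 2 to -0.03 without Exe 5, and was -0.08, with 2 higher and 3 lower, without both Con 1 and Exe 5. Pck1 was at 1080 ± 318 FPKM in Con and 785 ± 192 in Exe group (SD, n = 6 each), with a log2 difference of -0.44 ± 0.21 (SE, adjusted p = 0.809 in limma). G6pc, the last enzyme of glucose release, differed by -0.19 ± 0.57, and Trib3, an inhibitor of insulin signaling, by -0.52 ± 0.24. The mean FPKM of G6pc was higher in Exe group, at 163.4 against 153.9 in Con, and its lowest Exe mouse was at 16.18 against 75.79 in Con.

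Genes whose sex bias in liver depends on growth hormone were also listed. Of 18 male-biased genes, 2 were higher and 16 lower in Exe group (3 and 15 with quantile normalization), with a median log2 difference of -0.08 against 0.02 over all genes tested. Without Con 4, Exe 2 or Exe 5 the counts were 5 higher and 13 lower, and the median ran from -0.15 without Exe 1 to -0.05 without Con 4. None passed the unadjusted p. The pheromone carrier Mup20 was at 11780 ± 1308 FPKM in Con and 10800.0 ± 2212 in Exe group, the protease inhibitor gene Serpina1e at 11030 ± 1356 and 10170 ± 2310, and Mup3 at 8648 ± 1188 and 8232 ± 1123 (SD, n = 6 each). Mup and Serpina1 genes are families of near-identical copies whose reads may be split between them. The lowest difference was that of Moxd1, -0.89 ± 0.80 (SE), with 0.18 to 28.16 FPKM in Con and 0.04 to 11.36 in Exe mice.

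Of 25 female-biased genes sought, 23 were present in the data and 8 were tested in these males. All 8 were higher in Exe group, with a median log2 difference of 0.38, which was 0.23 without Con 4. Only Cyp39a1, an oxysterol hydroxylase, passed the unadjusted p. It lay at 4.39 to 6.43 FPKM in Con and at 5.71 to 10.63 in Exe mice, and 5 of 6 Exe mice were above all Con mice. Its log2 difference was 0.56 ± 0.13 (SE), with an adjusted p of 0.581 in limma and an unadjusted p of 0.00649 in the exact permutation test, so it failed the correction. Hamp2, a hepcidin gene, differed by 0.77 ± 0.71, Cyp2c40 by 0.43 ± 0.30 and the prolactin receptor Prlr by 0.20 ± 0.13. The medians of Hamp2 were nearly equal, at 31.39 FPKM in Con and 31.98 in Exe mice, while its lowest values were 1.25 and 19.57. The direction of the 8 genes does not amount to a test, since genes of 1 liver vary together. Of the other listed female-biased genes, 15 were under the filter and had a mean below 1 FPKM, with 9 higher in Exe group, 4 lower and 2 equal.

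**Figure D5:**
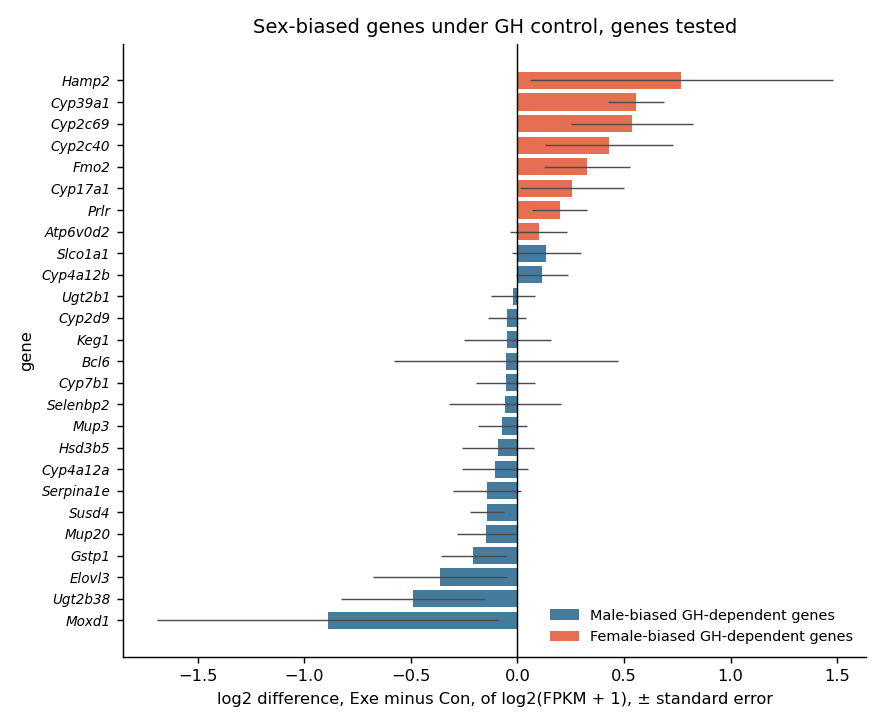
Difference in mean log2(FPKM + 1) between Exe and Con groups for the 18 male-biased and 8 female-biased genes tested, as bars with the standard error from limma (n = 6 mice in each group). The male-biased genes run from -0.89 (Moxd1) to 0.14 (Slco1a1) and the female-biased from 0.10 (Atp6v0d2) to 0.77 (Hamp2), and only Cyp39a1 (0.56) passed the unadjusted p.

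Markers of other cells and states are given beside these lists, and their part in them was not tested. None of the genes on these lists was at 0 in all mice. Of 8 hepatocyte markers, 6 were higher in Exe group (median 0.05), and Alb (0.34, adjusted p = 0.793 in limma) and Cps1 (0.29, adjusted p = 0.777 in limma) passed the unadjusted p. All 8 acute-phase genes were lower (median -0.69), with 0 past it. The count was 7 with quantile normalization and 6 without Con 1, Con 2, Exe 2 or Exe 4, and the median ran from -1.30 without Exe 5 to -0.30 without Con 1. They summed to 4110 to 34600 FPKM in Con and 4319 to 33770 in Exe mice. Of 5 red blood cell markers, 4 were higher (median 0.75), with sums of 235 to 903 and 400 to 1290 FPKM, and Hbb-bs passed the unadjusted p (0.83, adjusted p = 0.799 in limma). These 4 were all globin genes (Hba-a1, Hba-a2, Hbb-bs and Hbb-bt), while the remaining marker, Alas2, was lower (-0.18). All 5 Kupffer cell markers were lower (median -0.23, sums of 125 to 233 and 86.3 to 207). Of 8 stellate cell markers 7 were lower (median -0.17, sums of 52.6 to 104 and 55.3 to 103), and of 6 endothelial markers 3 were (median 0.04, sums of 47.3 to 73.8 and 54.7 to 66.0). Of 5 bile duct markers, 2 were tested, Spp1 (-0.51) and Sox9 (-0.11). The sums of the 5 (27.2 to 75.0 and 25.4 to 76.7) were mostly Spp1. The untested Krt19 had a median of 0.885 FPKM in Con and 1.205 in Exe mice, and Krt7 of 0.395 and 0.44. None of the 7 pancreas markers was tested, and their sum reached 20.1 FPKM in Exe 5 against at most 5.14 in the other mice.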

How the data were processed

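Liver RNA was extracted with TRIzol and sequenced on a DNBSEQ instrument. Per its methods, the study had used principal components to exclude outliers. After filtering out reads of low quality, the authors used HISAT with the GRCm39 genome, and the deposited values are FPKM per mouse. The submitters' processing notes also list Bowtie2 and mm10, with no role. The tool that gave the FPKM, strand use and any scaling between mice are not given in the sources used here. FPKM rounded by the authors carry no counts, so the count-based test of the study was replaced by limma, and no counting error is given. NCBI gene IDs of 16710 of 16821 genes were found in RefSeq GRCm38.p6, which served for names and promoter windows only. Members were matched by symbol, and no coordinates were converted.

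Groups were compared by limma 3.58.1 under R 4.3.3 (lmFit and eBayes with a trend on log2(FPKM + 1)). Permutations used scipy 1.17.1 and numpy 2.4.6, tables pandas 2.3.3 and figures matplotlib 3.10.9, under Python 3.11.15. The fit was tested on simulated data. A two-sided exact permutation test per gene enumerated all 924 divisions of the mice (smallest p 0.00216). Correlations on log2(FPKM + 1) used 100000 two-sided permutations over 12 or 10 mice and all 720 within a group of 6 (smallest p 0.00139), with Benjamini-Hochberg adjustment over 16 pairs.

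The members, gene lists and pairs were chosen with earlier results of these data known. Genes were named by a rule: all members, genes of the lists past an unadjusted p of 0.05, the 3 most abundant genes of a pathway list (1 of which is not reported here), genes of the pairs, and the 3 genes most like Igf1, Igfbp1, Socs2 and Cish. Genes at the ends of a list's range, other receptors and binding proteins, Bcl6 and Spp1 were named after their values were seen. Alternatives were quantile normalization, a pseudocount of 0.1, no filter, a stricter filter (1 FPKM in all 12 mice), robust eBayes, a replicate block, each mouse left out in turn and values centred on the group means. Leaving out the 2 mice highest in acute-phase genes was chosen after seeing the data.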

Additional observations from a re-analysis of the deposited data

Results flagged for a closer look

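In each group of 6 mice, the gap between the highest or lowest mouse and its nearest neighbour was divided by the range of the group, and set against Dixon's critical value at 95%. Of 40 sets of values (20 on the FPKM scale and 20 on the log2 scale), 3 exceeded it, and chance gives about 1 in 20. Con 3 was the highest Con mouse in Jak2, with a ratio of 0.758 on the FPKM scale and 0.736 on the log2 scale, at 3.64 FPKM against 2.69 to 2.92 in the other Con mice. Con 1 was the lowest Con mouse in Socs2 on the log2 scale, with a ratio of 0.638, at 1.08 FPKM against 5.75 to 12.17 in the others.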

How the results depend on the processing

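Of 287 values under alternatives, 272 kept their direction, their side of the threshold or, for counts, stayed within 1.5 times. No member passed the adjusted p under any alternative, with a lowest value of 0.593, for Socs2. When single mice were left out, the log2 difference of Ghr ran from -0.0801 (without Con 2) to 0.0284 (without Exe 5), of Jak2 from -0.00313 (Exe 4) to 0.0779 (Con 3), of Igfals from -0.148 (Con 2) to 0.0184 (Con 5), of Igfbp2 from -0.0252 (Exe 4) to 0.19 (Exe 5) and of Cish from -0.0848 (Con 2) to 0.41 (Con 6), so their directions are not fixed. Stat5b ran from 0.06 (Exe 3) to 0.19 (Con 4), Igf1 from 0.0099 (Con 1) to 0.12 (Con 4), Igfbp4 from 0.01 (Exe 2) to 0.11 (Exe 4) and Igfbp1 from -0.44 (Exe 6) to -0.06 (Exe 4). Socs2 ran from 0.31 without Con 1 to 0.84 without Con 5, where its unadjusted p in limma was 0.0453. The stricter filter removed Cish. At the adjusted p, 1 gene passed with no filter, against 0 in every fit that left out a mouse, where 0 also passed both thresholds. The count at the unadjusted p ran from 418 without Exe 2 to 910 without Exe 5. With quantile normalization it was 618 (351 higher in Exe group and 267 lower), against 437 and 199 without it. With the replicate block, 567 genes passed the unadjusted p and 0 the adjusted p. After subtracting the group means, the correlations of same-numbered mice ran from -0.478 to 0.165. They were not set against those of differently numbered mice, so whether the numbers pair the mice was not settled. Among relations, Igfbp1 and Igfbp2 turned to r = -0.00229 with quantile normalization and -0.176 without the 2 mice highest in acute-phase genes, where Socs2 and Igf1 fell to 0.319 (adjusted permutation p = 0.471). Ghr and the acute-phase mean passed with centred values (r = -0.678, adjusted permutation p = 0.0435). The median of the female-biased genes stayed between 0.225 and 0.444 and that of the male-biased genes between -0.15 and -0.05 with a mouse left out. The medians of the receptor signaling list (-0.02 to 0.06), the IGF ligands and receptors (-0.05 to 0.06) and the hepatocyte factors (-0.10 to 0.05) changed sign. The causes were not tested.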
